A study of Homo sapiens with 4 samples.

Results

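The genes described here are the IGF binding proteins and the receptors and adaptors of IGF signalling, chosen by symbol as IGFBP2, IGFBP3, IGFBP4, IGFBP5, IGFBP6, IGFBP7, IGF1R, IGF2R, IRS1 and IRS2. Of these 10 genes, 8 had values in the deposited abundance table, out of 15221 genes with values in all. IGFBP5 and IGFBP7 are not analysed here, since none of their transcripts is in that table. The study used RNA-seq to ask which genes change when the histone variant H2A.Z is depleted in pancreatic cancer cells. PANC-1 is a cell line from a pancreatic ductal adenocarcinoma and was sequenced here as untransduced wild-type cells in 2 libraries. PZT-2 is a single knockdown clone of PANC-1, with 2 libraries, that stably carries lentiviral shRNAs against H2A.Z.1 and against both H2A.Z.2 isoforms and was selected with puromycin. Both lines were grown in DMEM with serum, at passages 12 to 13, with no drug or other treatment. The shRNAs, the viral integration and the choice of 1 clone cannot be told apart in a comparison of PZT-2 with untransduced PANC-1, and libraries of cells with a scrambled shRNA are not analysed here.

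Insulin-like growth factors (IGF1 and IGF2) are secreted peptides that activate the tyrosine kinase receptor IGF1R. In body fluids and around cells most of them are held by secreted IGF binding proteins, which bind the peptides tightly, prolong their life and usually keep them from the receptor until a protease cuts the binding protein. Activated IGF1R phosphorylates the adaptors IRS1 and IRS2, which recruit PI3 kinase and lead to AKT and mTOR, whereas IGF2R, the cation-independent mannose 6-phosphate receptor, carries IGF2 and lysosomal enzymes to the lysosome and does not signal in this way.

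In PZT-2, 6 of the 8 measured genes were higher and 2 were lower than in PANC-1. IGFBP3, the main binding protein of serum, was 17.7-fold higher. IGFBP4, a small binding protein that mostly inhibits IGF action, was 2.94-fold lower. IGFBP6, which prefers IGF2 over IGF1, was 3.09-fold higher, and the remaining members changed by 1.26 to 1.51 times. Read against all 15101 genes tested, of which 14.7% were called higher and 13.7% lower at an adjusted p below 0.05, each of the 8 genes was called. Normalized counts of the 2 PANC-1 libraries and the 2 PZT-2 libraries did not overlap for any of the 8, which was also true of 66.3% of all genes tested. Each of the 8 had at least 25 counts in every library, so none passed the filter on low counts through a single cell line.

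The depth behind these values was 12861388 and 15717448 counts in PANC-1 replicates 1 and 2 and 13955433 and 14175550 counts in PZT-2 replicates 1 and 2. A normalized count is the estimated count of a gene after correction for library size and composition, on the scale of an average library. Fold changes and Benjamini-Hochberg adjusted p values are from edgeR's quasi-likelihood test over all genes tested, PZT-2 against PANC-1. Standard errors (SE) were derived from that test, as the absolute log2 fold change divided by the square root of its F statistic. Other errors are SD over 2 libraries. The study calls the libraries of a line biological replicates. For a single gene measured in 2 libraries per line, the smallest two-sided p that exact permutation allows is 0.333. Both targets of the shRNAs were lower in PZT-2. H2AFZ, which encodes H2A.Z.1, had 6386 and 6032 normalized counts in PANC-1 and 2211 and 2258 in PZT-2. H2AFV, which encodes both H2A.Z.2 isoforms, had 3342 and 3451 in PANC-1 and 2588 and 2718 in PZT-2, and its call was lost without PZT-2 replicate 1 (adjusted p = 0.0672 by edgeR). Of 8 ductal epithelial markers, all with values, 1 was called higher and 5 lower, and their summed level was 7330.5 to 7370.3 TPM in PANC-1 and 3855 to 3934 TPM in PZT-2. Of the marker lists of other cell types, none of the 6 acinar markers had a value, nor had CDH5, PTPRC or INS. Leukocyte markers with values (CD14, LYZ and CD68, 3 of 6, 1 called higher) came to 115 to 121 TPM in PANC-1 and 118 to 124 TPM in PZT-2. The endothelial list had PECAM1 (1 of 6) at 0.0873 to 0.236 and 0.0757 to 0.17 TPM, and the islet list had IAPP (1 of 6) at 0.525 to 0.562 and 0.143 to 0.223 TPM. Fibroblast markers (COL1A1 and PDGFRB, 2 of 8, 1 called lower) came to 10.7 to 11.6 and 3.14 to 3.94 TPM. SERPINA1, the hepatocyte marker with a value (1 of 4), was called higher, at 0.147 to 0.544 and 1.13 to 2.13 TPM. The part that these markers play in the changes of the IGF genes was not tested. In bulk RNA, fewer cells with a transcript and less of it per cell cannot be told apart.

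**Figure D1:**
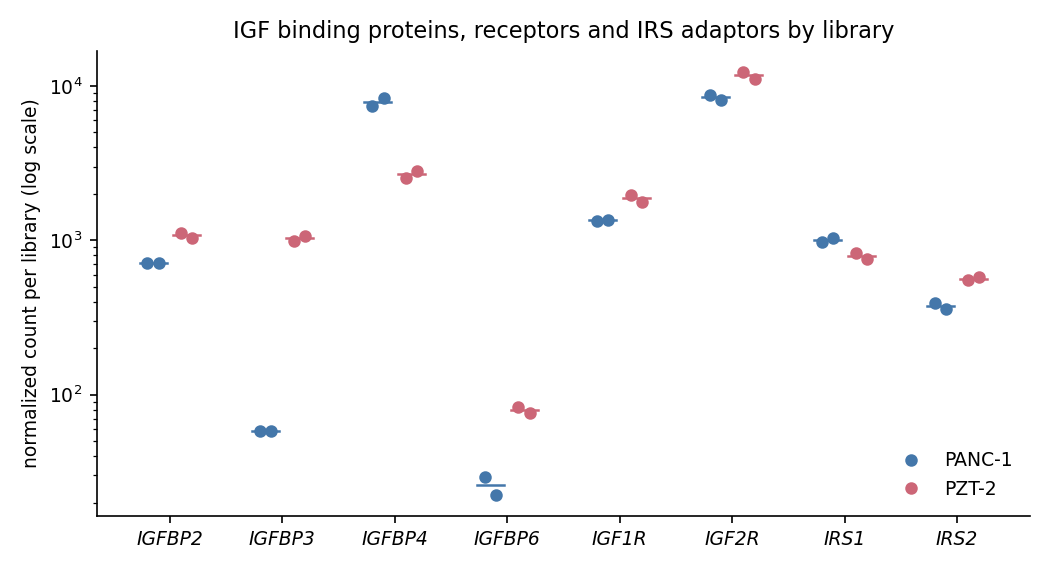
Normalized counts (log scale) of the 8 measured genes in each library, with PANC-1 in blue and PZT-2 in red; each point is a library and each line the mean of 2. IGFBP3 lies farthest apart between the lines, followed by IGFBP6 and, in the opposite direction, IGFBP4, with IGFBP3 at 57.8 to 58.5 in PANC-1 and 992 to 1069.6 in PZT-2.

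IGFBP3 and IGFBP4 moved in opposite directions, and the 100 bases upstream of their start sites are shown for that reason, 5′ to 3′ on the strand of the gene. They are credited to RefSeq on GRCh38.p14 and lie at chr7:45921273-45921372 (minus strand) and chr17:40443350-40443449 (plus strand). Capitals mark TATATA in IGFBP3, TATAAA in IGFBP4 and, in both, CCGCCC, the reverse complement of the GC box core GGGCGG.
IGFBP3: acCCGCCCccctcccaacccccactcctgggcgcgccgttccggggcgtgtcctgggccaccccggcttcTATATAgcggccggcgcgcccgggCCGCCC
IGFBP4: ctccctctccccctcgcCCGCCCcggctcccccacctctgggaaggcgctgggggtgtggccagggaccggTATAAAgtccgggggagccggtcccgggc
The TATATA of IGFBP3 begins 30 bases and the TATAAA of IGFBP4 begins 29 bases upstream of the annotated start. Neither word was found in the 250 bases upstream of any annotated start of the other 6 measured genes. Searched on both strands, TATATA is in 3.73% and TATAAA in 10.7% of all 35116 promoters of the reference, and matches that overlap each other were all counted. GGGCGG or its reverse complement is in 42.6% of them, and each of the 8 genes has it upstream of an annotated start.

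IGFBP3 had normalized counts of 58.5 and 57.8 in PANC-1 and of 992 and 1069.6 in PZT-2. The PZT-2 libraries were far above the PANC-1 libraries, and within each line the 2 libraries were close. The log2 fold change was 4.15 (SE 0.104, adjusted p = 4.2e-05 by edgeR), a size above that of 99.5% of the genes tested. IGFBP3 was the member with the largest change, and it also passed under each of 16 other settings, with log2 fold changes between 3.74 and 4.2. Of these settings, the one relative to the median of all genes keeps the adjusted p of the main test and could not lose a call. The neighbour of IGFBP3 on chromosome 7, IGFBP1, had 20.2 and 11.7 normalized counts in PANC-1 and 11.1 and 9.89 in PZT-2. That is a log2 fold change of -0.59 (SE 0.47, adjusted p = 0.403 by edgeR), which did not pass, and these low counts leave a wide error. The median log2 fold change of chromosome 7 genes was -0.09.

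IGFBP4 had normalized counts of 7387 and 8349 in PANC-1 and of 2540.1 and 2807 in PZT-2. Every PZT-2 library lay below every PANC-1 library, by more than the difference between replicates. The log2 fold change was -1.56 (SE 0.0812, adjusted p = 0.000197 by edgeR), and it lay between -1.65 and -1.47 under the 16 other settings, passing in each. IGFBP4 is on chromosome 17, whose genes had a median log2 fold change of 0.0042.

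IGFBP6 was the lowest of the 4 binding proteins in counts, with normalized counts of 29.2 and 22.6 in PANC-1 and of 83.5 and 76.1 in PZT-2. The lines were well apart, although the PANC-1 values rest on 26 and 25 counts. Its log2 fold change was 1.63 (SE 0.242, adjusted p = 0.00448 by edgeR). IGFBP2, which circulates as the second binding protein of serum and carries an integrin-binding RGD sequence, had 713 and 712 normalized counts in PANC-1 and 1115 and 1035 in PZT-2. Both PZT-2 libraries were higher. The log2 fold change was 0.59 (SE 0.0705, adjusted p = 0.00209 by edgeR), beside a median of 0.12 for chromosome 2.

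The level of a gene can be compared with that of another gene only per length, for which the deposited TPM are used, a measure of transcript number corrected for length and depth. Summed over the 4 measured binding proteins, TPM came to 517 and 569 in PANC-1 and to 318 and 328 in PZT-2. The sum was thus lower in both PZT-2 libraries although 3 of its 4 parts were higher. IGFBP4 made up 84.0% and 86.8% of the sum in the PANC-1 libraries and 46.8% and 50.0% in the PZT-2 libraries. IGFBP2 went from 14.6% and 12.1% to 33.8% and 30.4%. IGFBP3 went from 0.564% and 0.510% to 15.5% and 16.2%, and IGFBP6 from 0.841% and 0.597% to 3.91% and 3.45%. No share overlapped between the lines. Shares of the same sum depend on each other, so a lower share of IGFBP4 leaves higher shares for the rest. In normalized counts, 66.3% of all genes tested did not overlap between the lines. IGFBP4 exceeded IGFBP3 by 149 and 170.3 times in the PANC-1 libraries and by 3.02 and 3.10 times in the PZT-2 libraries. These shares are a description of mRNA with no test, do not cover IGFBP5 and IGFBP7, and say nothing of secreted protein.

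**Figure D2:**
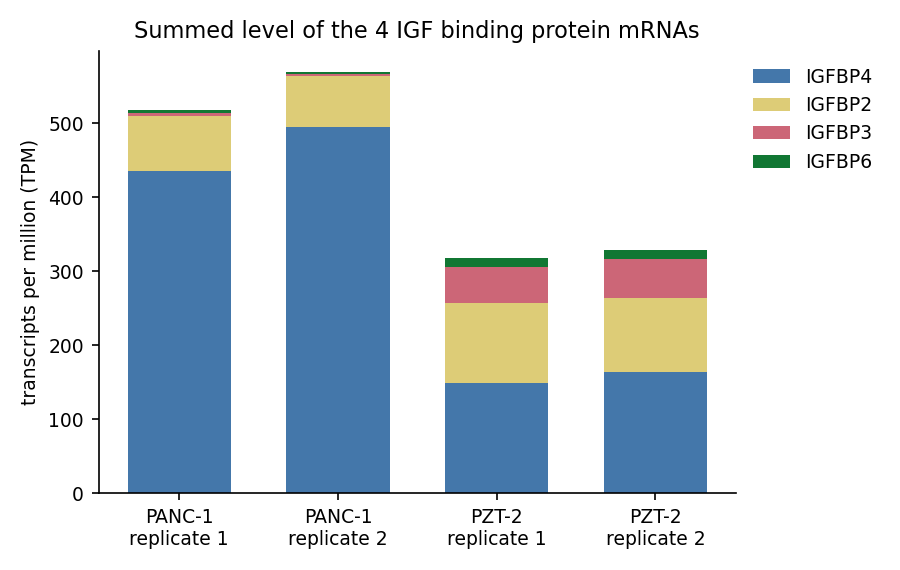
Stacked bars of TPM for the 4 measured IGF binding proteins in each library, starting at 0. The PZT-2 bars reach 318 and 328 TPM against 517 and 569 in PANC-1, and IGFBP3, at 2.90 to 2.92 TPM in PANC-1, takes 49.3 and 53.0 TPM of them.

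Among all 8 genes, IGFBP4 had the highest level in PANC-1, with a mean of 465 TPM, followed by IGF2R (74.8 TPM) and IGFBP2 (72.1 TPM), whose ranges over the libraries overlapped. The overlap rests on PANC-1 replicate 1, where 22.1 of the 75.4 TPM of IGFBP2 were given to its shorter transcript, NM_001313990. That transcript had 0.0178 TPM in PANC-1 replicate 2, and the same TPM enter the share of IGFBP2 given above. IRS1 (14.4 TPM) and IGF1R (13.7 TPM) came next and also overlapped. IRS2 (6.78 TPM), IGFBP6 (3.88 TPM) and IGFBP3 (2.91 TPM) were lowest and did not overlap each other. In PZT-2, IGFBP4 was still highest, at a mean of 156 TPM, and IGFBP2 (104 TPM) and IGF2R (103 TPM) again overlapped. IGFBP3 was in the fourth place at 51.1 TPM. It was followed by IGF1R (18.9 TPM), by IGFBP6 (11.9 TPM) and IRS1 (11.3 TPM), which overlapped, and by IRS2 (10.0 TPM). The highest and the lowest of the 8 means were 159.5 times apart in PANC-1 and 15.6 times apart in PZT-2.

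The 2 receptors rose together. IGF1R had 1331 and 1363 normalized counts in PANC-1 and 1975 and 1767 in PZT-2. Both PZT-2 libraries were higher, with a log2 fold change of 0.47 (SE 0.0732, adjusted p = 0.00514 by edgeR), and the call was lost for the most abundant transcript alone (adjusted p = 0.122). IGF1R lies on chromosome 15, and the median over the 532 chromosome 15 genes tested was also raised, at 0.24. The part of that shift in the value of IGF1R was not tested.

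IGF2R had 8756 and 8101 normalized counts in PANC-1 and 12321 and 11112 in PZT-2. Again the PZT-2 libraries were higher, with a log2 fold change of 0.48 (SE 0.0677, adjusted p = 0.00389 by edgeR). The median of chromosome 6, where IGF2R lies, was -0.02. IGF2R exceeded IGF1R by 5.18 to 5.73 times in TPM in PANC-1 and by 5.43 to 5.48 times in PZT-2, so the ratio of the receptors overlapped between the lines.

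The upstream region of IGF2R is shown because it stood out among the 8 genes in the words searched. The 100 bases are from chr6:159968982-159969081 on the plus strand (RefSeq, GRCh38.p14), with CACGTG, a form of the E-box, and GGGCGG in capitals.
IGF2R: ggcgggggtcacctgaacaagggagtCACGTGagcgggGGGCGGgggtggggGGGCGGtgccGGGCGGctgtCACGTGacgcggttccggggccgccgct
CACGTG occurs 2 times in this stretch and 3 times in the 250 bases upstream, and other forms of the E-box were not searched. None of the other 7 genes has CACGTG in that window, which 6.34% of all promoters hold at least once and 0.0797% at least 3 times. A match to letters does not show that a factor binds there.

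Of the adaptors, IRS1 was lower and IRS2 higher in PZT-2. IRS1 had 968 and 1041 normalized counts in PANC-1 and 832 and 758 in PZT-2. The gap between the lines was larger than the difference within either line, but small. The log2 fold change was -0.34 (SE 0.0787, adjusted p = 0.0215 by edgeR), the smallest among the 8 genes. It did not pass without PZT-2 replicate 1 or 2 (log2 fold changes -0.41 and -0.27), with limma-trend on TPM or for the most abundant transcript alone. IRS1 has a single transcript, so its own counts were the same in that last setting (log2 fold change -0.34, adjusted p = 0.0685 by edgeR).

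IRS2 had 395 and 359 normalized counts in PANC-1 and 549 and 575 in PZT-2. Both PZT-2 libraries were higher, with a log2 fold change of 0.58 (SE 0.0887, adjusted p = 0.0049 by edgeR). In TPM, IRS1 exceeded IRS2 by 1.96 and 2.32 times in the PANC-1 libraries and by 1.21 and 1.05 times in the PZT-2 libraries. The ratio was lower in both PZT-2 libraries, and the level of IRS1 stayed the higher of the pair in each library.

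**Figure D3:**
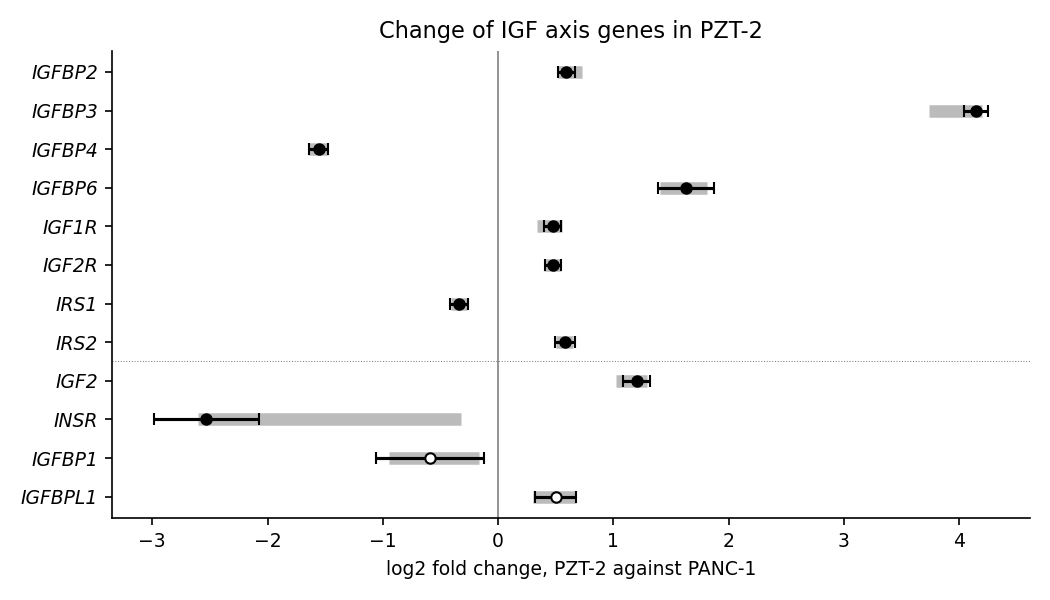
Log2 fold change of PZT-2 against PANC-1 for the 8 genes (above the dotted line) and for IGF2, INSR, IGFBP1 and IGFBPL1 (below it). Points are edgeR estimates with SE bars, filled where the adjusted p was below 0.05, and grey bars span the estimates over the other settings, which reach -0.32 for INSR on a scale with a pseudocount.

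IGFBP2 and IGF1R have a pair of transcripts each in the table and the other 6 genes a single transcript. The transcripts of IGF1R differ in 3 bases, shown here in capitals, which are the opening bases of exon 14 of 21 at chr15:98929558-98929560 (plus strand, GENCODE 29 on GRCh38) and lie in the coding sequence.
NM_000875: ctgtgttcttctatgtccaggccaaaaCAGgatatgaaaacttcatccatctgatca
NM_001291858: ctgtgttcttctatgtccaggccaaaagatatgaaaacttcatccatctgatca
In GENCODE 29, 33 of the 12205 words of 31 bases in NM_000875 and 30 of the 12202 in NM_001291858 are their own, so few reads can tell them apart. NM_000875 had 960.4 and 1181 normalized counts in PANC-1 and 1357 and 1339 in PZT-2. NM_001291858, which lacks the bases in capitals, had 370.0 and 189.8 in PANC-1 and 615 and 423 in PZT-2. Both forms were higher in the PZT-2 libraries, but neither passed when tested as a transcript (adjusted p = 0.284 and 0.402 by edgeR over 30403 transcripts).

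For IGFBP2, the full-length NM_000597 had 557 and 716 normalized counts in PANC-1 and 1088 and 1011 in PZT-2. NM_001313990, which begins at another exon, was given 139 counts in PANC-1 replicate 1 and 0 in replicate 2, against 25 and 21 in the PZT-2 libraries. The PANC-1 libraries thus differ in this split, while their sums of 713 and 712 normalized counts are nearly equal. In GENCODE 29, 84.2% of the 31-base words of NM_001313990 are also in NM_000597. Among separate transcripts of the 8 genes, 1 passed in edgeR, that of IGFBP3 (adjusted p = 0.0344), out of 45 passing among all 30403 transcripts, with 5615 at an unadjusted p below 0.05. With at least 10 counts in all 4 libraries 3 of them passed, and with DESeq2 7 passed, among 1209 and 4400 of all transcripts.

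Of the ligands IGF1, IGF2 and insulin and the readthrough gene INS-IGF2, only IGF2 has a value in the table. IGF2 had 155 and 174 normalized counts in PANC-1 and 403 and 357 in PZT-2. The PZT-2 libraries were higher, with a log2 fold change of 1.2 (SE 0.119, adjusted p = 0.00116 by edgeR). The level of IGF2 was 4.27 to 4.69 TPM in PANC-1 and 9.43 to 10.8 TPM in PZT-2. It lay below that of IGFBP2, IGFBP4, IGF1R, IGF2R and IRS1 in every library. INS-IGF2 overlaps IGF2, and reads from the overlap cannot be told apart here.

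INSR, the insulin receptor, which also binds IGF2 in its shorter form, was measured through 1 transcript, NM_001079817, which encodes that shorter form. It had 24.7 and 22.6 normalized counts in PANC-1 and 4.02 and 3.95 in PZT-2, so it passed the filter on low counts through PANC-1 alone. The log2 fold change was -2.53 (SE 0.454, adjusted p = 0.00859 by edgeR), and the call was lost without PZT-2 replicate 1 or 2 and with limma-trend on TPM. The remaining soluble partner with a value, IGFBPL1, had 95.6 and 92.1 normalized counts in PANC-1 and 149.9 and 116 in PZT-2, and did not pass (log2 fold change 0.50, adjusted p = 0.0799 by edgeR).

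The wider pathway was read through 11 lists, in which 113 of 130 genes had values. Of these, 23 were called higher and 18 lower, 36.3% in all, beside 28.4% of all genes tested in either direction, and their median log2 fold change was 0.03. Each of the 8 larger lists, shown in the plot by list, had genes called in both directions. The share called in either direction ran from 20% to 66.7% over these lists. It was below that of all genes tested for the sorting partners of IGF2R (20%), the FOXO list (21.4%) and the mTOR list (26.3%), and above it for the rest.

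Proteins that share the N-terminal domain of the IGFBPs had 9 of 12 genes with values, of which 4 were called higher and 2 lower, with a median log2 fold change of 0.35. HTRA1, a secreted serine protease, had 107 and 111 normalized counts in PANC-1 and 256 and 255 in PZT-2, a change of 1.23 on the log2 scale (adjusted p = 0.00101 by edgeR). CTGF and WISP2, matricellular proteins of the CCN family, had log2 fold changes of 0.64 and 0.44 (adjusted p = 0.0236 and 0.0415). CTGF varied between the PANC-1 libraries, at 4103 and 2856. A further member of that family, CYR61, was lower (-0.39, adjusted p = 0.0153), as was KAZALD1 (-0.57, adjusted p = 0.0185). The calls of CTGF, CYR61, WISP2 and KAZALD1 were each lost without PZT-2 replicate 1 or 2, and that of WISP2 also without PANC-1 replicate 2.

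Of the proteases that cut IGFBPs and their inhibitors, 8 of 15 genes had values, and 2 were called higher and 2 lower. MMP2, a gelatinase, had 3507 and 3599.8 normalized counts in PANC-1 and 2306 and 2118 in PZT-2, a change of -0.68 on the log2 scale (adjusted p = 0.000917 by edgeR). CTSD, the lysosomal aspartyl protease cathepsin D, fell from 36579.6 ± 3223 (SD, n = 2) to 25292 ± 887 (SD, n = 2) (-0.53, adjusted p = 0.0023). The genes that rose are below the mean count of 100 set for naming and were named after their values were seen. STC1, stanniocalcin 1, an inhibitor of the IGFBP4 protease PAPP-A, had 10.1 and 21.7 normalized counts in PANC-1 and 137 and 170.0 in PZT-2, a change of 3.22 on the log2 scale (SE 0.31, adjusted p = 0.00108). MMP7, matrilysin, had 20.2 and 17.2 in PANC-1 and 79.5 and 82.0 in PZT-2 (2.11, adjusted p = 0.00185). PAPPA itself, which encodes PAPP-A, did not pass (-0.18, SE 0.296, adjusted p = 0.699), and STC2, its other stanniocalcin inhibitor, had a log2 fold change of 0.01 (SE 0.159, adjusted p = 0.973).

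Of the adaptors and phosphatases around the receptor, 22 of 24 genes had values, and 5 were called higher and 4 lower, with a median log2 fold change of 0.05. NCK1, CRK and GRB2, which link receptors through SH2 and SH3 domains, had log2 fold changes of 0.62, 0.39 and 0.40 (adjusted p = 0.00404, 0.0155 and 0.00288 by edgeR). NCK1 lies on chromosome 3, whose median was 0.43, and its call was lost for the most abundant transcript alone (adjusted p = 0.109). ENPP1, a membrane phosphodiesterase that binds and inhibits the insulin receptor, fell by 1.33 on the log2 scale (SE 0.13, adjusted p = 0.0011), and SOCS2, a feedback inhibitor of growth hormone signalling, fell by 0.82 (adjusted p = 0.00213), a call that was lost for the most abundant transcript alone (adjusted p = 0.0668). SOS2, an exchange factor for RAS, was at -0.71 (adjusted p = 0.0177), and its call was lost without PZT-2 replicate 2, as the call of CRK was without PZT-2 replicate 1 or 2. SH2B2, an adaptor of the insulin receptor that was named after its values were seen, was at 1.30 (adjusted p = 0.0134), and it did not pass without PZT-2 replicate 2 or for its most abundant transcript alone, where the log2 fold change was 0.46 (adjusted p = 0.551).

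All 17 genes of the PI3 kinase and AKT list had values, and 4 were called higher and 3 lower, with a median of 0.04. PHLPP1, a phosphatase that removes the activating phosphate of AKT, had 106 and 107 normalized counts in PANC-1 and 250.5 and 219 in PZT-2, a change of 1.14 on the log2 scale (adjusted p = 0.00192 by edgeR). INPPL1, the lipid phosphatase SHIP2, was at 0.39 (adjusted p = 0.00441), and PIK3CA, the catalytic subunit p110 alpha, at 0.43 (adjusted p = 0.0248), beside a chromosome 3 median of 0.43. AKT2 was lower (-0.34, adjusted p = 0.00189), as was PIK3C2A, a class II PI3 kinase (-0.57, adjusted p = 0.032). The call of INPPL1 was lost without PZT-2 replicate 2, that of PIK3C2A without PANC-1 replicate 2 or PZT-2 replicate 2, and that of PIK3CA without PANC-1 replicate 1 and without either PZT-2 library.

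In the mTOR list, with values for all 19 genes, 1 gene was called higher and 4 lower, and the median was -0.10. MLST8, a subunit of both mTOR complexes, was at -0.47 (adjusted p = 0.00274 by edgeR). RPS6KB2, a ribosomal S6 kinase, was at -0.27 (adjusted p = 0.0179) and AKT1S1, the mTORC1 inhibitor PRAS40, at -0.24 (adjusted p = 0.0259). Without PZT-2 replicate 1 or 2 neither RPS6KB2 nor AKT1S1 passed.

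FOXO factors, which AKT keeps out of the nucleus, and genes they activate had 14 of 14 genes with values and a median of 0.34, but 2 were called higher and 1 lower. FOXO3 was at 0.37 (adjusted p = 0.0317 by edgeR), and its call was lost without PANC-1 replicate 2 and without either PZT-2 library. PDK4, an inhibitor of pyruvate dehydrogenase, had 27 and 28.9 normalized counts in PANC-1 and 96.6 and 74.1 in PZT-2, a change of 1.60 on the log2 scale (SE 0.244, adjusted p = 0.00486), and it was named after its values were seen. The gene called lower is INSR, given above.

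Of 7 genes for IGF2 mRNA-binding proteins and regulators of the let-7 microRNA, 2 were called higher and 1 lower. IGF2BP2 and IGF2BP3, which bind IGF2 and other mRNAs, were at 0.51 and 0.36 (adjusted p = 0.0032 and 0.0085 by edgeR), IGF2BP2 beside the chromosome 3 median of 0.43. IGF2BP3 did not pass without PZT-2 replicate 1 or 2. LIN28B, which blocks the maturation of let-7 and was named after its values were seen, had 75.4 and 67.7 normalized counts in PANC-1 and 24.1 and 23.7 in PZT-2, a change of -1.57 on the log2 scale (adjusted p = 0.00459).

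Partners of IGF2R in lysosomal sorting had 15 of 15 genes with values, of which 2 were called higher and 1 lower, with a median of -0.02. NAGPA, which uncovers the mannose 6-phosphate that IGF2R binds, was at 0.58 (adjusted p = 0.00605 by edgeR) and did not pass without PZT-2 replicate 1. GGA2, an adaptor that carries IGF2R out of the Golgi, was at 0.51 (adjusted p = 0.00379). AP1M1, a subunit of the clathrin adaptor AP-1, was at -0.25 (adjusted p = 0.0253) and did not pass without PZT-2 replicate 1 or 2.

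**Figure D4:**
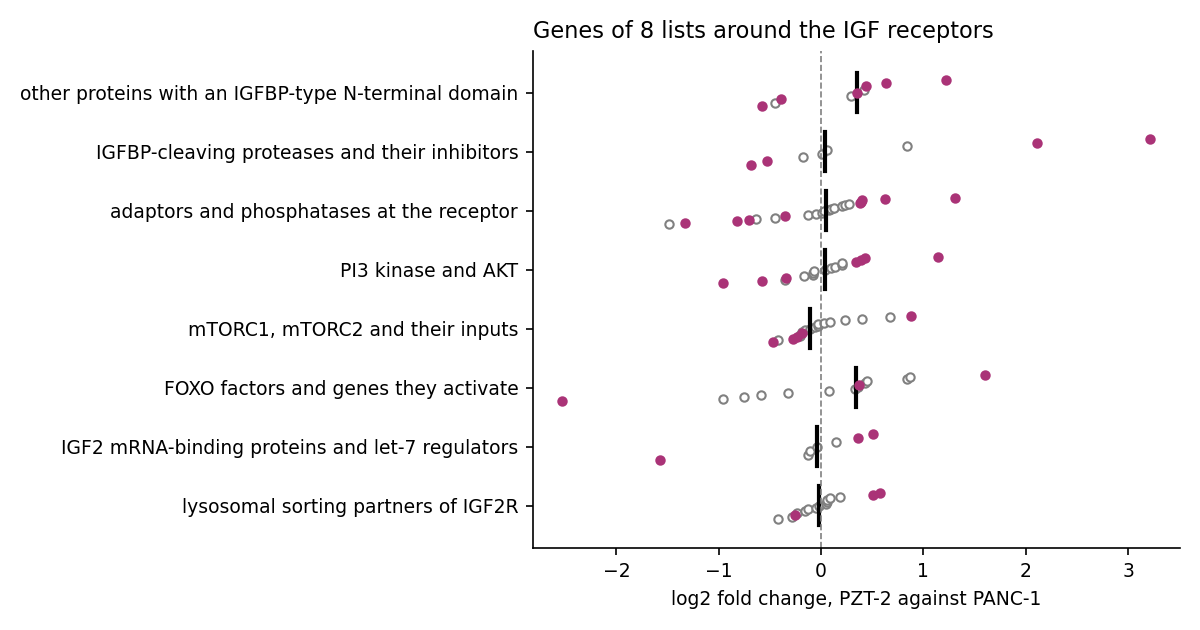
Log2 fold change of PZT-2 against PANC-1 for each gene of 8 lists, filled where the adjusted p was below 0.05 and open otherwise; black bars are list medians and the dashed line is the median of all genes tested. List medians lie between -0.10 and 0.35, and single genes reach from -2.53 (INSR) to 3.22 (STC1).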

How the data were processed

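RNA-seq was analysed for 2 PANC-1 and 2 PZT-2 libraries (stranded mRNA, paired ends). The authors trimmed reads with Trim Galore 0.4.1 and obtained estimated counts and TPM per transcript with kallisto 0.43.0 on RefSeq transcripts, and the release is not given in the sources used here. The estimated counts as deposited by the authors carry 1 scaling factor per library (1.16, 0.935, 1.03 and 1.01), which was undone before they were rounded and summed per gene. Among low values of transcripts alone in their gene, 49.0% to 49.8% were then whole to within 0.01, against 0.635% to 2.71% before. The factors were sought so as to make this share largest, so its rise is not a separate check of them. TPM values were used as deposited and come to 940619 to 1000097 per library. A further deposited table holds the authors' comparison by sleuth 0.29.0 (effects, p and q values), of which only gene symbols were used. Symbols named 27049 transcripts and RefSeq accessions 3925, and 103 with 0.0466% of counts stayed unnamed.

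Genes that reached 5 counts in 2 or more libraries were tested with edgeR 4.0.16 (TMM, quasi-likelihood test, R 4.3.3) with Benjamini-Hochberg adjustment over all of them and a threshold of 0.05. Alternatives were RLE factors, DESeq2 1.42.0, no filter, a minimum of 10 counts in each library, limma-trend (limma 3.58.1) on log2(TPM + 1) and log2(TPM + 0.1), a replicate block, each library left out, length-scaled counts, the most abundant transcript alone, counts as deposited, values relative to the median of all genes and, added after the data were seen, the version 4 dispersion estimate of edgeR.

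The genes and lists were chosen with earlier results of these data known. Named are all members, all ligands, receptors and soluble partners with values, in each other list up to 3 called genes per direction with the largest change among those whose mean normalized count reached 100, the knockdown targets, and 5 genes marked as named after their values were seen. Chromosomes are from RefSeq on GRCh38.p14, whereas the submitters' notes name hg19, so no gene coordinates were converted.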

Additional observations from a re-analysis of the deposited data

How the results depend on the processing

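Each of the 8 genes kept its direction under all 16 alternatives, and 122 of the 128 values passed the threshold. The 6 exceptions were IGF1R for its most abundant transcript alone (adjusted p = 0.122 by edgeR) and IRS1 under 5 settings. Values relative to the median of all genes keep the adjusted p of the main test by construction, so that setting could not lose a call. IRS1 has a single transcript, so its own counts did not change for the most abundant transcript alone. The number called higher stayed at 6, or 5 for the most abundant transcript alone. The number called lower was 1 with limma-trend on either TPM scale and for the most abundant transcript alone, and between 1 and 2 with 1 library left out. The count of all genes called went from 4283 to 2115 for the most abundant transcript alone and, with 1 library left out, ran from 1747 (without PZT-2 replicate 2; 2073 when replicate 1 is left out) to 4510, where the lone library is assumed to vary like the other line. The list genes called went from 41 to 20 for the most abundant transcript alone and to between 19 and 52 with 1 library left out. Of the genes' transcripts, 1 passed in the main test, 3 with at least 10 counts in all 4 libraries and 7 with DESeq2. The cause of these differences was not tested.

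With a replicate block, 3692 genes were called, among them 6 members higher and 2 lower. Nothing in the sources used here says that replicate numbers mark a shared culture. Libraries with the same number deviated from their group with r = -0.024 over the genes tested, which cannot show whether they shared 1. In summed counts in place of TPM, IGFBP4 made up 90.8% of the binding proteins in PANC-1 and 55.0% in PZT-2, IGFBP2 8.25% and 22.2%, IGFBP3 0.673% and 21.2%, and IGFBP6 0.302% and 1.65%, so the directions held. Of the other named genes, CTGF, WISP2, KAZALD1 and PIK3CA did not pass with DESeq2, INSR, PIK3CA, PIK3C2A and FOXO3 did not pass with limma-trend, and WISP2 and PIK3C2A did not pass with the block. For the most abundant transcript alone, the calls of CTGF, WISP2, KAZALD1, CYR61, NCK1, CRK, SOCS2, SOS2, SH2B2, PIK3CA, PIK3C2A, RPS6KB2, AKT1S1, FOXO3, AP1M1 and H2AFV were lost, with adjusted p from 0.0518 (RPS6KB2) to 0.551 (SH2B2). With counts as deposited, that of WISP2 was lost. IGFBP6, IGFBP1 and INSR rest on few counts.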
